A study of Mus musculus with 4 samples.

Results

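Atf4, Slc7a11, Bbc3, Atf6 and Pdia4 are genes of the integrated stress response and of the response to unfolded protein in the endoplasmic reticulum (ER). They were taken by symbol, joined to the rows through transcript identifiers, and make up 5 of the 6352 transcripts measured, with 1 transcript each. The genes were selected on their reads and RPM in these same libraries, so their levels and differences are given as a description, without a test.

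The data are ribosome footprints at start codons of primary cultured mouse cortical neurons, from 1 library for each combination of genotype (Ltn1 KO or WT) and RNAi (Ttc3 RNAi or scramble RNAi). Ltn1 encodes listerin, a ubiquitin ligase that tags unfinished chains on stalled ribosomes, and Ttc3 encodes another ubiquitin ligase, which the study followed as a protein that accumulates without listerin. All 4 libraries come from neurons given harringtonine (5 µg/ml, 3 min), which holds ribosomes at start codons. No group was replicated, and the age of the neurons and the number of animals are not given in the sources used here.

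GEO's titles assign Ttc3 RNAi to LTNSC and WTSC and scramble RNAi to LTNTTC and WTTTC, which are the codes of the libraries, but read as letters the codes say the reverse. For this reason the codes serve as names here. LTNSC and LTNTTC carry the label Ltn1 KO and WTSC and WTTTC the label WT. Differences are given as SC minus TTC, so that a value names the libraries it was taken from. The labels do not decide which RNAi each code received. Read as Ttc3 RNAi against scramble RNAi, these differences follow the titles and change sign if the codes are right. The paper lists Mthfd2 and Ube2j2 with fewer start-site footprints in Ltn1 KO than in WT. Both had 0 reads in LTNTTC and WTTTC and had reads in WTSC, so the listed differences came from LTNSC and WTSC. The paper does not name the RNAi arm of that list. If it is scramble RNAi, the codes are right and the titles exchanged.

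Of the targeted genes, Ltn1 had 37 reads in LTNSC and 0 in LTNTTC, against 10 in WTSC and 2 in WTTTC, so that LTNSC went against its label. Which part of the gene is missing is not stated in the sources used here, and footprints at its start codon need not report the deletion. Ttc3 had 2 reads in LTNSC, 0 in LTNTTC, 3 in WTSC and 0 in WTTTC, and these few reads do not decide between the titles and the codes. The values are RPM, reads at a site scaled to all reads of the library, and every one of them was a whole multiple of 1 read within 1e-06. Total reads were 2673112 in LTNSC, 3655827 in LTNTTC, 2096153 in WTSC and 1460425 in WTTTC, of which 6.06% to 6.85% lay at the listed sites. A count of 0 allows up to 3 reads, or 1.12 RPM in LTNSC, 0.821 RPM in LTNTTC, 1.43 RPM in WTSC and 2.05 RPM in WTTTC. Intervals are exact 95% intervals and cover counting error only. The libraries differed by more than that error, with a mean Pearson statistic between 3.17 and 5.12 in the 4 comparisons among transcripts with at least 20 reads, where counting error alone gives about 1. The 14 markers of neurons, the labelled cell type, summed to between 1810 and 2077 RPM, with Slc17a6 at 0 in both SC libraries and Neurod6 at 0 in WTTTC. Tubb3 made up 1043 to 1278 RPM of these sums. On the log2(RPM + 1) scale used below, Rbfox3, Gad1 and Slc17a6 were at least 2-fold lower in SC than TTC in both genotypes. Of the 14, 0 were higher by as much and 4 lower in LTNSC than in LTNTTC, where 7.3% and 12.5% of all transcripts were. In WT 1 was higher and 3 lower in WTSC than in WTTTC, where 12.4% and 13.4% of all were.

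In the integrated stress response, stress kinases phosphorylate the initiation factor eIF2, which lowers initiation on most mRNAs while the reading frame of the transcription factor ATF4 becomes better translated. ATF4 then raises genes of amino acid supply and redox balance, among them Slc7a11, the cystine importer of the plasma membrane, and genes that can favour cell death, among them Bbc3, which encodes the BH3-only protein PUMA and is also a classical p53 target. Unfolded protein in the ER is sensed by PERK, IRE1 and ATF6. ATF6 is a membrane-bound transcription factor that is cut in the Golgi when the ER is stressed and then raises folding factors such as Pdia4, a protein disulfide isomerase of the ER lumen.

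Promoter stretches of Slc7a11 and Pdia4 are shown because these genes are textbook targets of the ATF4 and ATF6 branches. Capitals mark the core of the amino acid response element in Slc7a11. In Pdia4 they mark CCAAT, which is only a part of the ER stress response element. Sequences are from RefSeq (GRCm38.p6), where windows of 250 bases before to 50 bases after a start were matched for Atf4, Slc7a11, Bbc3 and Pdia4. The core of the amino acid response element, TGATGCAA, was searched on both strands and occurred in 294 of 32851 windows (0.895%). The Slc7a11 window held it on each strand, and no window matched for Atf4, Bbc3 or Pdia4 held it. The Slc7a11 stretch is the minus strand of chr3:50443614-50443713, the 100 bases before a start that lies inside the gene's annotated span. The capitals mark the core in forward and in reverse orientation, which begin at −66 and −47 from that start.
Slc7a11: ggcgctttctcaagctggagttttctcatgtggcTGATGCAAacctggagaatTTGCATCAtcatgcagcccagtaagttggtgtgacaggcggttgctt

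The Pdia4 stretch is the minus strand of chr6:47813513-47813612, also 100 bases before the start. Its capitals mark CCAAT, the part of the ER stress response element that the factor NF-Y binds, on the reverse strand and on the forward strand, beginning at −94 and −75. Another CCAAT began at −213.
Pdia4: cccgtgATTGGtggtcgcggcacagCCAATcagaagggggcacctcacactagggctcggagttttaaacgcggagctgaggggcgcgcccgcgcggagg

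CCAAT alone was common, with 37.4% of all windows holding it on either strand. The full ER stress response element, CCAAT followed after 9 bases by CCACG (0.119% of windows), its other form, ATTGG followed after 1 base by CCACG (0.0365%), and the unfolded protein response element TGACGTGG (0.676%) were searched in the same way and were in no window matched for these genes. These matches describe the letters of the windows and are not binding sites measured here.

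The 5 genes showed 3 patterns over the libraries. Slc7a11 and Atf6 had reads in the SC libraries only, Bbc3 in the TTC libraries only, and Pdia4 in every library with its lowest level in LTNSC. Atf4 had almost none.

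Atf4 (ENSMUST00000109605.4, chr15:80255184-80257545, the span of the gene in GRCm38.p6 as for the other genes) had 0 reads in LTNSC, LTNTTC and WTSC and 2 reads in WTTTC, a level of 1.37 RPM (0.166 to 4.95). It was thus at or under the 3-read floor in every library, and no fold between groups can be given. Atf4 mRNA carries short upstream reading frames, and whether their start codons were counted with the main one is not given in the sources used here.

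Slc7a11 (ENSMUST00000029297.5, chr3:50364936-50499087), whose protein exchanges glutamate for cystine, had 19 reads in LTNSC (7.11 RPM, 4.28 to 11.1), 0 in LTNTTC, 12 in WTSC (5.72 RPM, 2.96 to 10.0) and 0 in WTTTC. Both SC libraries were high and both TTC libraries at 0, whichever genotype they carried. Its 31 reads all came from the SC libraries.

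Bbc3 (ENSMUST00000002152.12, chr7:16308398-16318334), which encodes the pro-apoptotic PUMA, had the opposite pattern. It had 0 reads in LTNSC, 13 in LTNTTC (3.56 RPM, 1.89 to 6.08), 0 in WTSC and 13 in WTTTC (8.90 RPM, 4.74 to 15.2). The read counts of the TTC libraries were equal, and the RPM differ through the depth of the libraries.

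Atf6 (ENSMUST00000027974.6, chr1:170704457-170868585), the ER stress sensor, had 42 reads in LTNSC (15.7 RPM, 11.3 to 21.2), 0 in LTNTTC, 37 in WTSC (17.7 RPM, 12.4 to 24.3) and 0 in WTTTC. It thus shared the SC-only pattern of Slc7a11, with 79 reads in place of 31. Its paralog Atf6b, which encodes a related membrane-bound factor, had 0 reads in all 4 libraries.

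Pdia4 (ENSMUST00000077290.8, chr6:47796141-47813512) had 21 reads in LTNSC (7.86 RPM, 4.86 to 12), 49 in LTNTTC (13.4 RPM, 9.92 to 17.7), 39 in WTSC (18.6 RPM, 13.2 to 25.4) and 38 in WTTTC (26.0 RPM, 18.4 to 35.7). It was the member with the most reads, 147 in all, and the one above the floor in every library. Both KO levels lay below both WT levels, and within each genotype the SC level lay below the TTC level.

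**Figure D1:**
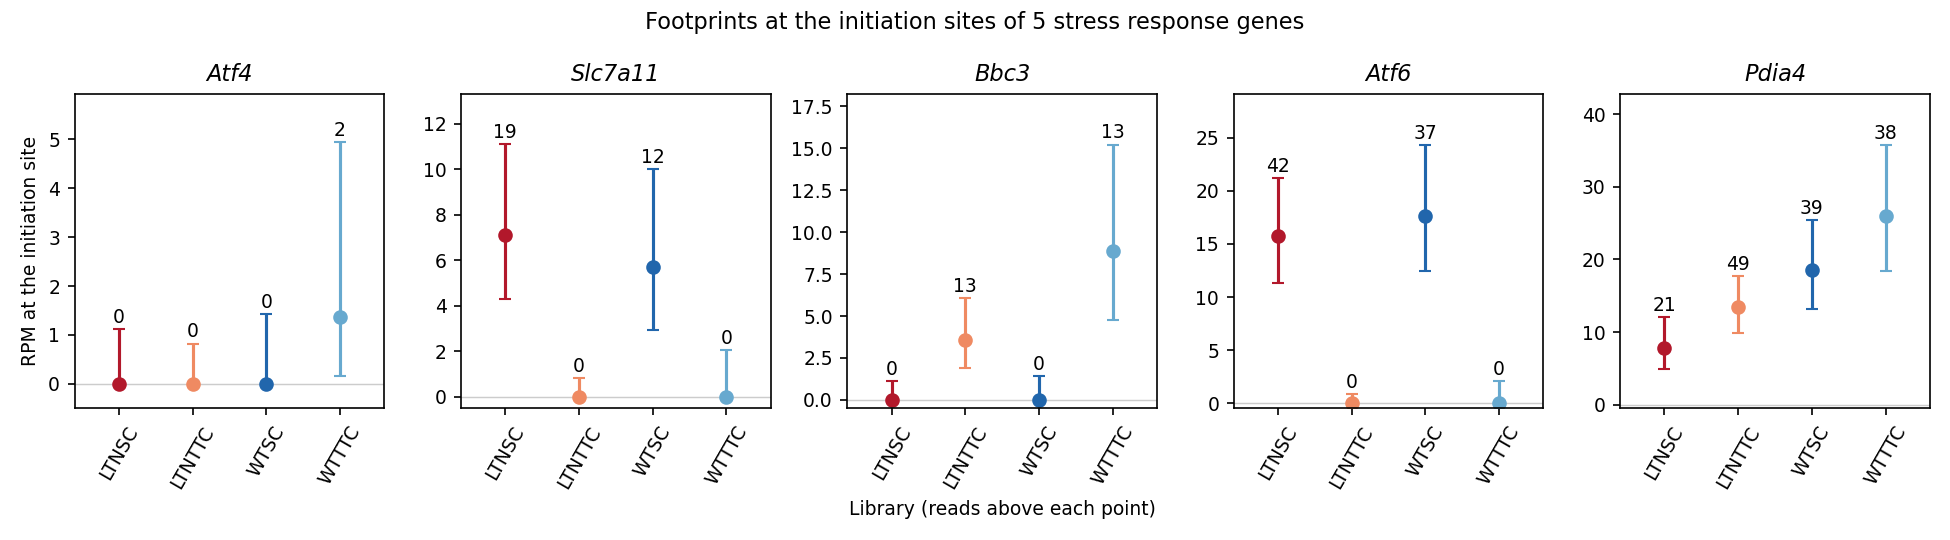
Footprints at the initiation site of each gene, in RPM (vertical axis, a scale of its own in each panel), in the 4 libraries, with the reads printed above each point. Bars are exact 95% Poisson intervals and, at 0 reads, reach to the 3-read floor; Slc7a11 and Atf6 stand above 0 in LTNSC and WTSC, Bbc3 in LTNTTC and WTTTC, and Pdia4 lies between 7.86 and 26.0 RPM.

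The SC libraries (titled Ttc3 RNAi) were first set against the TTC libraries (titled scramble RNAi) within each genotype. Differences are on the log2(RPM + 1) scale, which understates the change of low levels, and a member was counted where its difference passed 2-fold. In Ltn1 KO neurons 2 members were higher in LTNSC (Slc7a11 and Atf6), where 7.3% of all 6352 transcripts were higher by as much, and 1 was lower (Bbc3), where 12.5% were. In WT neurons 2 were higher in WTSC (again Slc7a11 and Atf6), where 12.4% of all transcripts were, and 2 were lower (Bbc3 and Atf4), where 13.4% were. Atf4 is counted there on 0 reads against 2, from which no fold can be given. The members were chosen with these contrasts known, and nothing is read from the counts.

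Atf6 differed by 4.06 between LTNSC and LTNTTC and by 4.22 between WTSC and WTTTC. Set against the 3-read floor of the TTC library, its level was 19.1-fold higher in LTNSC and 8.59-fold higher in WTSC, and with the counting error of its own reads the exact lower limit of the ratio was 14.9 in Ltn1 KO and 6.65 in WT. In each genotype only 1 of the 6352 transcripts had a larger difference in this direction. Atf6 was chosen on these same libraries, so its rank is a description and no test.

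Slc7a11 differed by 3.02 in Ltn1 KO and by 2.75 in WT, and its level was 8.66-fold above the floor of LTNTTC in LTNSC and 2.79-fold above that of WTTTC in WTSC. The exact lower limits of the ratio were 6.38 in Ltn1 KO and 1.94 in WT, so that in WT a ratio under 2-fold lay within counting error. The floor is 0.821 RPM in LTNTTC and 2.05 RPM in WTTTC. Its partner Slc3a2, the heavy chain that carries the importer to the membrane, did not share the pattern. Slc3a2 had 5.61 RPM in LTNSC, 10.7 RPM in LTNTTC, 11.0 RPM in WTSC and 18.5 RPM in WTTTC, and so was lower in the SC library of each genotype. Its SC over TTC ratio was 0.526 (0.269 to 0.976) in Ltn1 KO and 0.593 (0.325 to 1.08) in WT, where the interval included 1.

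Bbc3 differed by −2.19 in Ltn1 KO and by −3.31 in WT, where the floor of LTNSC lay 3.17-fold below the level in LTNTTC and that of WTSC 6.22-fold below the level in WTTTC. The exact upper limits of the ratio were 0.449 in Ltn1 KO and 0.229 in WT. Bax, which encodes an effector that BH3-only proteins act on, had 6.36 RPM in LTNSC, 16.4 RPM in LTNTTC, 9.54 RPM in WTSC and 26.0 RPM in WTTTC. Bax was thus also lower in the SC libraries, with reads in all 4.

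Pdia4 differed by −0.70 in Ltn1 KO, a ratio of LTNSC to LTNTTC of 0.586 (0.334 to 0.996), and by −0.46 in WT, a ratio of 0.715 (0.446 to 1.15). The interval in WT included 1, and that in Ltn1 KO ended just under 1. With the other scalings of the libraries given below, the difference in Ltn1 KO was −0.57 and −0.54. Atf4 differed by −1.24 in WT, on 0 reads in WTSC and 2 in WTTTC.

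**Figure D2:**
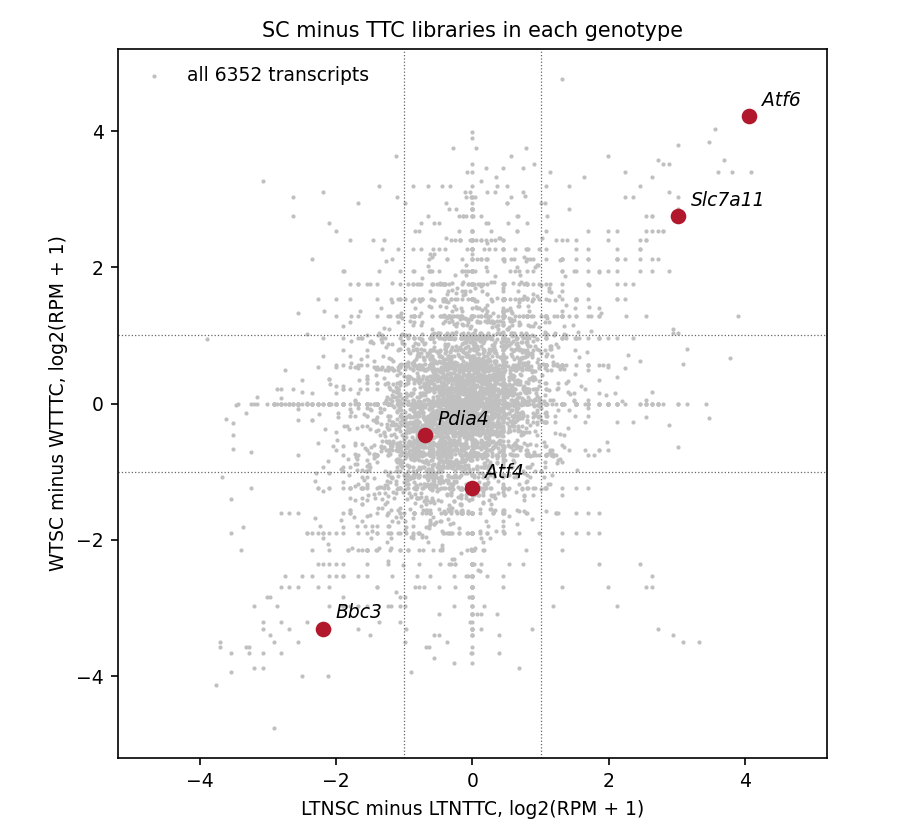
Difference between the SC and the TTC library on the log2(RPM + 1) scale in Ltn1 KO (horizontal axis) and in WT (vertical axis), with all 6352 transcripts in grey, the 5 genes in red and dotted lines at 2-fold. Atf6 (4.06 and 4.22) and Slc7a11 (3.02 and 2.75) lie at the upper right, Bbc3 (−2.19 and −3.31) at the lower left, and Pdia4 (−0.70 and −0.46) and Atf4 (0 and −1.24) between them.

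Patterns of this kind, present in both libraries of a code and at 0 in both of the other, were not limited to these genes. With at least 10 reads in each library of one code and 0 in the other, 28 transcripts (0.441% of all) were SC-only and 29 (0.457%) TTC-only. Atf6 had the most reads of the 28 and Slc7a11 ranked 16 among them, while Bbc3 ranked 25 among the 29 TTC-only transcripts. The same pattern by genotype was seen for 23 transcripts (0.362%) with reads in the Ltn1 KO libraries only and for 6 (0.0945%) with reads in the WT libraries only, and no member was among them. More broadly, 157 transcripts (2.47%) were at least 2-fold higher in the SC library of both genotypes and 228 (3.59%) at least 2-fold lower.

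Genes whose pattern was most like that of a member were found by the distance between levels on the log2(RPM + 1) scale, after each transcript's mean over the 4 libraries was subtracted, among the 2314 transcripts whose mean was 5 RPM or more. Each distance rests on 4 libraries, and nothing about function or control follows from it. For Atf6 they were Cfap97 (a distance of 0.406), Pds5a (0.507) and Mchr1 (0.539), against a median distance of 4.31. Cfap97 had 29 reads in LTNSC, 0 in LTNTTC, 32 in WTSC and 0 in WTTTC. For Slc7a11 they were Grk3 (0.622), Rnh1 (0.731) and Mchr1 (0.763), against a median of 3.07. Grk3, a kinase of G protein-coupled receptors, had 30 reads in LTNSC, 0 in LTNTTC, 20 in WTSC and 0 in WTTTC. All 5 genes named here were thus at 0 in both TTC libraries.

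For Bbc3 the nearest were Pdk3 (0.650), Fam210b (0.757) and Sgpl1 (0.852), against a median of 2.78. Pdk3, a pyruvate dehydrogenase kinase, had 2 reads in LTNSC, 24 in LTNTTC, 0 in WTSC and 22 in WTTTC. For Pdia4 they were Ckb (0.112), Psmc1 (0.145) and Syn3 (0.164), against a median of 1.23. Ckb, the brain creatine kinase, had 23.2 RPM in LTNSC, 41.3 RPM in LTNTTC, 57.2 RPM in WTSC and 80.8 RPM in WTTTC, in the same order of libraries as Pdia4. The distances around Pdia4 were the smallest of the 4, and this gene had the least extreme pattern.

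The libraries labelled Ltn1 KO were then set against WT within each code, to compare footprints at start codons. No mRNA level was measured in these libraries, so initiation and the amount of mRNA cannot be told apart. In the TTC pair (scramble RNAi by title, Ttc3 RNAi by the letters of the code) 0 members were at least 2-fold higher in LTNTTC, where 12.2% of all transcripts were, and 2 were lower (Bbc3 and Atf4), where 7.98% were. Atf4 is counted on 0 reads against 2, from which no fold can be given. In the SC pair (Ttc3 RNAi by title, scramble RNAi by the letters) 0 were higher in LTNSC, where 8.44% of all transcripts were, and 1 was lower (Pdia4), where 9.12% were. No member passed 2-fold in the same direction in both pairs, while 109 transcripts (1.72%) were higher and 70 (1.10%) lower in both.

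Pdia4 came closest. It was lower by 0.91 in LTNTTC than in WTTTC on the log2 scale, a ratio of 0.515 (0.330 to 0.809), and lower by 1.15 in LTNSC than in WTSC, a ratio of 0.422 (0.236 to 0.736). Neither counting interval included 1, and with 1 library per group the spread between cultures is not known.

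Bbc3 differed by −1.12 between LTNTTC and WTTTC, a ratio of 0.399 (0.171 to 0.935) on 13 reads in each, and was at 0 in both libraries of the SC pair. Atf4 differed by −1.24 in the TTC pair, on 0 reads in LTNTTC and 2 in WTTTC, and passed 2-fold on those reads alone. Slc7a11 differed by 0.27 between LTNSC and WTSC, a ratio of 1.24 (0.572 to 2.80), and Atf6 by −0.16, a ratio of 0.890 (0.558 to 1.42). Both intervals included 1, so that a difference between Ltn1 KO and WT was not detectable at this depth in the SC pair, and both genes were at 0 throughout the TTC pair.

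**Figure D3:**
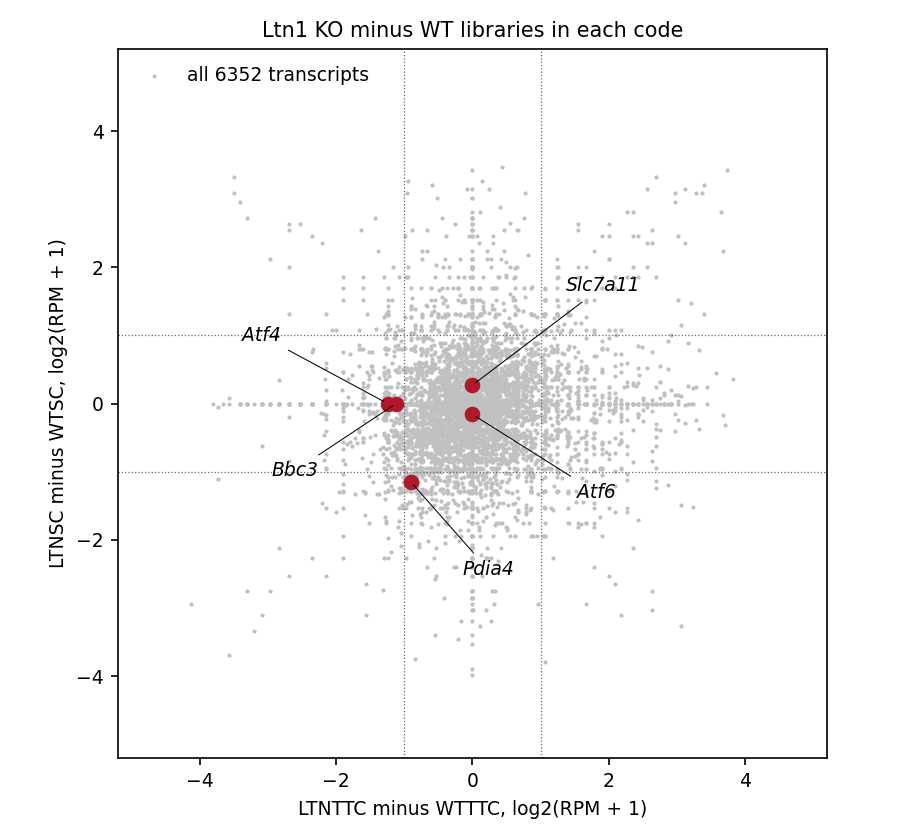
Difference between the Ltn1 KO and the WT library on the log2(RPM + 1) scale in the TTC pair (horizontal axis) and in the SC pair (vertical axis), with all 6352 transcripts in grey, the 5 genes in red and dotted lines at 2-fold. Pdia4 lies to the lower left of the centre (−0.91 and −1.15), Slc7a11 and Atf6 on the vertical line through 0, and Atf4 and Bbc3 on the horizontal one.

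Over the whole table, genotype and code were fitted as additive terms, which leaves 1 residual degree of freedom. After Benjamini-Hochberg adjustment, edgeR's quasi-likelihood test called 0 of 4585 transcripts for genotype, with 97 higher and 170 lower in Ltn1 KO at an unadjusted p under 0.05. For the code it called 0 as well, with 174 higher and 373 lower in SC. No other tool was run.

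To place the members in their pathways, 7 lists of genes of these responses were followed, with 201 genes listed and 140 measured. Here too the counts are of transcripts past 2-fold, to be read beside the shares of all transcripts given above, and the median of all transcripts was 0 in both Ltn1 KO over WT pairs.

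Upstream, the eIF2 pathway list holds the subunits of eIF2 and of its exchange factor, the stress kinases and the phosphatases that reverse them. Of its 17 measured genes, 3 were higher and 1 lower in LTNTTC than in WTTTC, and 2 were higher and 2 lower in LTNSC than in WTSC. The medians were −0.24 and −0.14. Ppp1cb, a catalytic subunit of the phosphatase that removes the phosphate from eIF2, had 23.2 RPM in LTNSC and 17.5 RPM in LTNTTC, against 9.06 RPM in WTSC and 13.7 RPM in WTTTC. Its KO levels were both above its WT levels, with a ratio of 2.56 (1.51 to 4.53) in the SC pair and 1.28 (0.764 to 2.23) in the TTC pair. Eif2s1, the subunit that is phosphorylated, had ratios of 1.19 (0.75 to 1.90) in the SC pair and 1.23 (0.644 to 2.50) in the TTC pair. Both intervals of Eif2s1 included 1.

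Of 37 measured integrated stress response targets, which include Atf4, Slc7a11 and Bbc3, 2 were higher and 10 lower in LTNTTC than in WTTTC, and 2 were higher and 5 lower in LTNSC than in WTSC. The lower genes made up 27.0% of the list in the TTC pair and 13.5% in the SC pair, and the medians were −0.43 and −0.39. Of the 10, 4 had at most 3 reads in each library, and 1 of the 10 had a mean of at least 5 RPM, a level that 14 of the 37 genes reached. The summed level of the list was 217 RPM in LTNSC and 246 RPM in LTNTTC, against 317 RPM in WTSC and 364 RPM in WTTTC. Both KO sums lay below both WT sums. Between the codes the same list was even, with 2 higher and 4 lower in LTNSC than in LTNTTC (median 0) and 7 higher and 7 lower in WTSC than in WTTTC (median −0.05).

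Among the aminoacyl-tRNA synthetases of this list, which ATF4 is known to raise, Wars had 4.86 RPM in LTNSC and 5.47 RPM in LTNTTC, against 14.3 RPM in WTSC and 10.3 RPM in WTTTC. Its ratio was 0.340 (0.163 to 0.671) in the SC pair and 0.533 (0.259 to 1.12) in the TTC pair. Nars had ratios of 0.399 (0.248 to 0.629) in the SC pair and 0.705 (0.377 to 1.36) in the TTC pair. Lars was low in the other pair, with a ratio of 0.352 (0.164 to 0.750) in the TTC pair and 0.833 (0.396 to 1.76) in the SC pair. Tars, with 20.6 RPM in LTNSC, 22.7 RPM in LTNTTC, 17.7 RPM in WTSC and 27.4 RPM in WTTTC, differed in sign between the pairs. The list's other measured synthetases, Aars, Eprs, Gars, Iars, Mars1, Sars and Yars, were also lower in LTNSC than in WTSC. Their ratios ran from 0.392 (Yars) to 0.941 (Iars), and the counting interval of each allowed no difference. Tars alone was higher there, with a ratio of 1.17 (0.755 to 1.82). In the TTC pair the signs were mixed, with Eprs, Gars, Iars and Mars1 higher in LTNTTC than in WTTTC.

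The ER stress list holds the sensors and their regulators and includes Atf6. Of its 11 measured genes, 0 were higher and 1 lower in LTNTTC than in WTTTC, and 1 was higher and 1 lower in LTNSC than in WTSC, with medians of 0 in both pairs. Creb3, a relative of ATF6 that is also cut in the Golgi, had 9.73 RPM in LTNSC and 7.93 RPM in LTNTTC, against 10.0 RPM in WTSC and 21.2 RPM in WTTTC. Its high value was that of WTTTC, and its ratio was 0.374 (0.217 to 0.641) in the TTC pair and 0.971 (0.525 to 1.81) in the SC pair. Xbp1, the transcription factor activated by IRE1, had a ratio of 0.411 (0.179 to 0.891) in the SC pair and 1.52 (0.742 to 3.42) in the TTC pair, opposite in sign. Wfs1, an ER membrane protein, was lower in both, with ratios of 0.518 (0.349 to 0.775) in the TTC pair and 0.691 (0.467 to 1.02) in the SC pair. No gene of this list besides Atf6 was among the SC-only transcripts.

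Downstream of ATF6, the list of ER folding factors includes Pdia4. Of its 23 measured genes, 0 were higher and 2 lower in LTNTTC than in WTTTC, and 0 were higher and 5 lower (21.7%) in LTNSC than in WTSC. The medians were −0.11 and −0.28. Between the codes the medians were −0.43 (LTNSC over LTNTTC) and −0.46 (WTSC over WTTTC), where the median of all transcripts was −0.04 and 0. Hspa5, which encodes the ER chaperone BiP, had 13.5 RPM in LTNSC and 33.9 RPM in LTNTTC, against 33.9 RPM in WTSC and 32.9 RPM in WTTTC. LTNSC stood below the other libraries, with a ratio of 0.398 (0.259 to 0.602) in the SC pair and 1.03 (0.734 to 1.47) in the TTC pair. Txndc12, another oxidoreductase of the ER, was also lower in the SC pair, with a ratio of 0.343 (0.119 to 0.881), and had a ratio of 0.631 (0.344 to 1.19) in the TTC pair.

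Other disulfide isomerases of this list were Pdia3, P4hb and Pdia6, of which Pdia3 and Pdia6 are named after their values were seen. Pdia3 had 16.1 RPM in LTNSC and 30.1 RPM in LTNTTC, against 32.0 RPM in WTSC and 46.6 RPM in WTTTC, the same order of libraries as Pdia4, with ratios of 0.646 (0.473 to 0.888) in the TTC pair and 0.503 (0.335 to 0.749) in the SC pair. Pdia6 had 4.86 RPM in LTNSC and 16.4 RPM in LTNTTC, against 11.4 RPM in WTSC and 18.5 RPM in WTTTC. P4hb differed in sign between the pairs, with ratios of 1.80 (0.893 to 4.0) in the TTC pair and 0.694 (0.378 to 1.26) in the SC pair. Hsp90b1, the ER chaperone GRP94, had levels of 15.3 RPM in LTNSC and 13.7 RPM in LTNTTC, against 13.4 RPM in WTSC and 11.6 RPM in WTTTC. Folding factors thus held both genes with the pattern of Pdia4 and genes without it.

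The ER-associated degradation list holds the machinery that returns misfolded proteins to the cytosol. Of its 26 measured genes, 1 was higher and 3 lower in LTNTTC than in WTTTC, and 1 was higher and 5 lower in LTNSC than in WTSC, with medians of −0.21 and −0.20. Marchf6, a ubiquitin ligase of the ER membrane, had 12 RPM in LTNSC and 13.4 RPM in LTNTTC, against 31.0 RPM in WTSC and 41.8 RPM in WTTTC. It passed 2-fold in both pairs, with ratios of 0.321 (0.216 to 0.475) in the TTC pair and 0.386 (0.245 to 0.598) in the SC pair. Derl1, part of the channel for misfolded proteins, had a ratio of 0.407 (0.248 to 0.653) in the SC pair and 0.848 (0.578 to 1.26) in the TTC pair. Selenos was opposite in sign, with ratios of 0.329 (0.192 to 0.559) in the TTC pair and 1.57 (0.669 to 3.96) in the SC pair. Sel1l, the scaffold of the HRD1 ligase, had a ratio of 1.56 (0.969 to 2.62) in the TTC pair and 0.910 (0.514 to 1.62) in the SC pair.

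Around Bbc3, the list of the BCL-2 family and the p53 axis had 12 of 29 genes measured. In LTNTTC 1 gene was higher and 1 lower than in WTTTC, and in LTNSC 0 were higher and 2 lower than in WTSC, with medians of −0.06 and −0.26. Cdkn1a, a cell cycle inhibitor and p53 target like Bbc3, had 19.8 RPM in LTNSC and 24.6 RPM in LTNTTC, against 12.4 RPM in WTSC and 23.3 RPM in WTTTC. Unlike Bbc3, it had reads in all 4 libraries, and its SC over TTC ratio was 0.805 (0.562 to 1.14) in Ltn1 KO and 0.533 (0.307 to 0.915) in WT.

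Around Slc7a11, 19 of 24 genes of cystine uptake and glutathione were measured. In LTNTTC 4 were higher and 2 lower than in WTTTC, and in LTNSC 1 was higher and 1 lower than in WTSC, with medians of 0.07 and 0. Me1, the cytosolic malic enzyme that supplies NADPH, had 2.24 RPM in LTNSC and 5.47 RPM in LTNTTC, against 12.9 RPM in WTSC and 12.3 RPM in WTTTC. Marchf6 and Me1 were the genes of these lists with a mean of at least 5 RPM that passed 2-fold in the same direction in both pairs, and below that mean Bcat1, with 2 reads in LTNSC and 2 in LTNTTC against 8 in WTSC and 9 in WTTTC, did so too. Me1 had ratios of 0.444 (0.223 to 0.890) in the TTC pair and 0.174 (0.0588 to 0.431) in the SC pair. Nfe2l1, a transcription factor of proteasome and antioxidant genes, went the other way, with 19.1 RPM in LTNSC and 15.9 RPM in LTNTTC, against 10.0 RPM in WTSC and 6.16 RPM in WTTTC. Its ratios were 2.57 (1.27 to 5.91) in the TTC pair and 1.90 (1.13 to 3.33) in the SC pair. Slc1a1, a neuronal transporter of glutamate and cysteine, had a ratio of 2.72 (1.56 to 4.98) in the SC pair and 1.13 (0.797 to 1.62) in the TTC pair. The genes of glutathione synthesis, Gclc and Gclm, had at most 2 reads in any library and could not be compared.

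**Figure D4:**
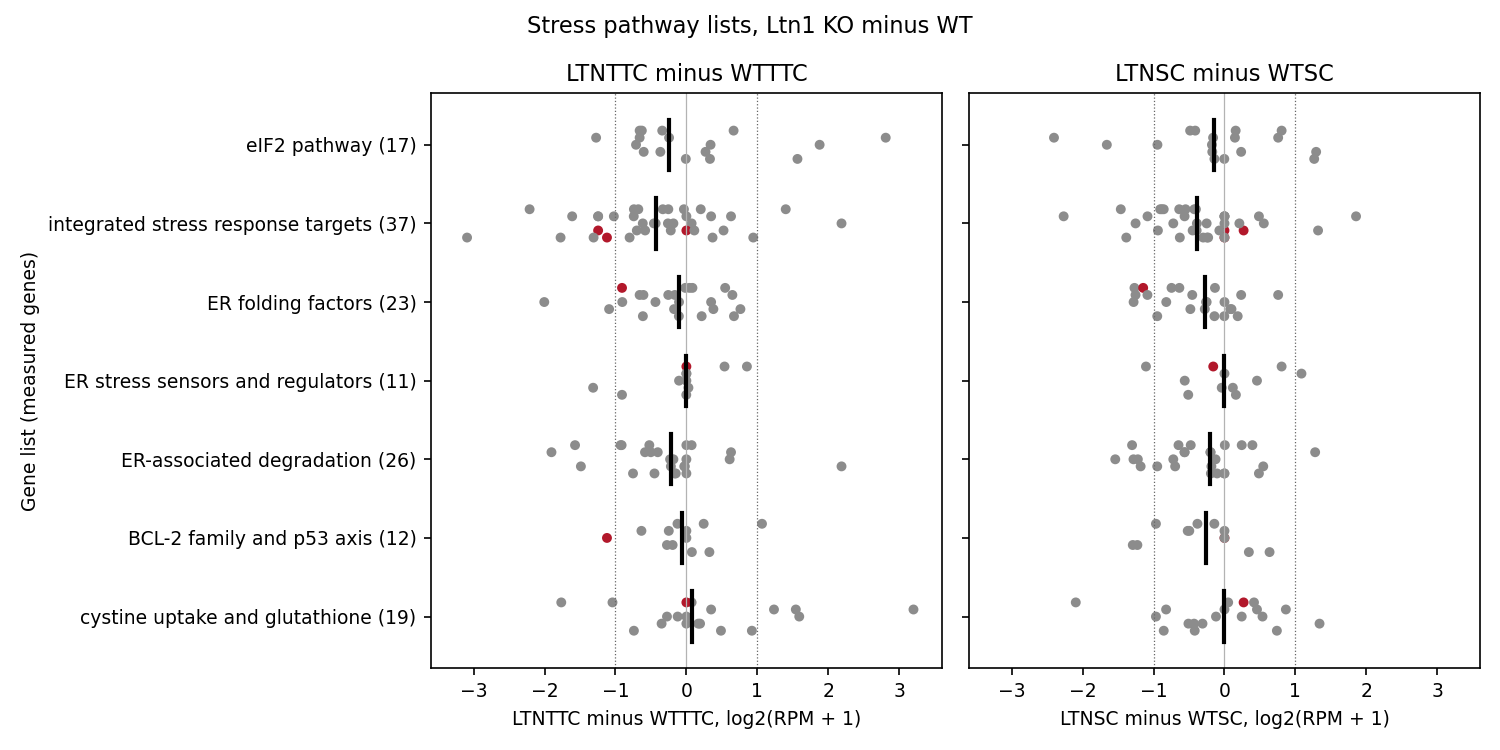
Differences between Ltn1 KO and WT on the log2(RPM + 1) scale (horizontal axes) for the measured genes of 7 pathway lists (rows, number measured in brackets), in the TTC pair on the left and in the SC pair on the right. Red points are the 5 members, black bars the list medians, which lie between −0.43 and 0.07, and dotted lines mark 2-fold.

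Levels of cell type markers also differed between the libraries, and their part in these results was not tested. Of the astrocyte list, 13 of 16 markers were measured, and their summed level was 439 RPM in LTNSC and 551 RPM in LTNTTC, against 536 RPM in WTSC and 631 RPM in WTTTC, with Aqp4 at 0 in both SC libraries and Gja1 at 0 in WTSC. LTNSC was the lowest and WTTTC the highest library of this sum, as for Pdia4. Apoe, its largest part, had 212 RPM in LTNSC and 289 RPM in WTTTC. Of the 13, 11 were lower in LTNSC than in LTNTTC and 2 higher. These 2, Glul (65.8 RPM) and Clu (24.7 RPM), had their highest level in LTNSC. Of the oligodendrocyte lineage list, 8 of 12 were measured and summed to 12 RPM in LTNSC and 46.5 RPM in LTNTTC, against 38.6 RPM in WTSC and 93.8 RPM in WTTTC, with Mbp, Cspg4 and Gpr17 among those at 0 in LTNSC and Gpr17 also at 0 in WTSC. Of these 8, 7 were lower in LTNSC than in LTNTTC and 1, Olig2, was higher (7.48 RPM against 6.29 RPM). Vascular and meningeal cells had 1 measured marker of 11, Dcn, with at most 4 reads in a library. In such mixed cultures, fewer cells of a type and less footprint RNA per cell cannot be told apart.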

How the data were processed

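Per the labels, Ribo-seq libraries were made from harringtonine-treated primary cortical neurons. The authors deposited RPM per transcript in 1 table with 4 value columns. Bowtie, SAMtools and bedtools with the build GRCm38/mm10 are listed in the submitters' processing notes. Versions, the window counted and the annotation are not given in the sources used here. Whole reads were recovered for 100% of 25408 values. Symbols were joined by transcript identifier for 6351 transcripts, after 38 identifiers had been mended by removing a surplus zero.

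Levels have exact Poisson intervals, ratios exact conditional binomial intervals, and folds against 0 use a 3-read floor per library, beside the exact limit. Differences are of log2(RPM + 1). Members and lists were chosen with earlier results of these data known. The list genes named were those with a mean of at least 5 RPM that passed 2-fold in both Ltn1 KO over WT pairs or were among the 2 largest increases or decreases of a pair, and, for members with at least 20 reads, the 3 nearest transcripts. Not all of them are described in the text. Some named or marker genes are not reported here. Atf6b, Bcat1, Pdia3, Pdia6, Gclc and Gclm were chosen after their values were seen. The edgeR model, fitted to transcripts with at least 10 reads, was tested on simulated data. The spread of those data was a fixed setting and was not taken from these libraries. That test therefore does not show which changes the model could find here. Alternatives were another pseudocount, other scalings, other filters and thresholds, and the exchange of RNAi labels. Python 3.11.15, numpy 2.4.6, pandas 2.3.3, scipy 1.17.1, matplotlib 3.10.9, R 4.3.3 and edgeR 4.0.16 were used.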

Additional observations from a re-analysis of the deposited data

How the results depend on the processing

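With the RNAi labels exchanged, as the codes spell them, the differences between Ttc3 RNAi and scramble RNAi changed sign: in Ltn1 KO to −3.02 for Slc7a11, 2.19 for Bbc3 and −4.06 for Atf6, and in WT to 1.24 for Atf4, −2.75 for Slc7a11, 3.31 for Bbc3 and −4.22 for Atf6. The reads do not change, only the name of the arm, and which assignment is right was not tested. Under the same exchange the members lower in Ltn1 KO than in WT numbered 1 with scramble RNAi and 2 with Ttc3 RNAi, and the members past 2-fold for Ttc3 RNAi in Ltn1 KO numbered 1 higher and 2 lower. With libraries rescaled to the same sum or by median-of-ratios factors, all 20 member differences and all 8 counts of members moved by less than counting error or the 1.5-fold limit set for counts. Median-of-ratios factors moved the median ratio by 0.14 (log2) in the SC pair and by 0.17 between the SC and TTC libraries of Ltn1 KO, and rescaling to the same sum moved it by 0.14 and 0.10 between the SC and TTC libraries of Ltn1 KO and WT. Pdia4 then differed between Ltn1 KO and WT by −0.85 in the TTC pair and −1.02 in the SC pair under median-of-ratios factors. With a pseudocount of 0.1 RPM, 8 of 20 member differences moved beyond counting error, none with a change of direction, to 7.30 and 7.47 for Atf6. Of 56 counts over lists, 39 moved with a mean of at least 5 RPM required, 35 with a threshold of 1.5-fold, 34 with the labels exchanged, 18 with the pseudocount, 4 with median-of-ratios factors and 2 with the same sum. The edgeR calls stayed at 0 with TMM normalization (163 higher and 123 lower for genotype at an unadjusted p under 0.05, 256 and 282 for code) and with no filter on low counts (117 and 178 of 5955 for genotype, 192 and 400 for code). No paired analysis was possible because each group had 1 library and so no replicate numbers, though the edgeR model compared genotype within code. One read was worth 0.274 to 0.685 RPM, and median reads of a transcript lay between 4 and 11.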

Other observations

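Several target genes of ATF4 outside the rule for named genes, chosen after their values were seen, had reads in only some libraries. Shmt2, the mitochondrial serine hydroxymethyltransferase, had 0 reads in LTNSC, 25 in LTNTTC, 0 in WTSC and 14 in WTTTC, the TTC-only pattern of Bbc3. Psph, the last enzyme of serine synthesis, had 11 reads in WTTTC and 0 in the other 3 libraries. Mthfd2, an enzyme of mitochondrial one-carbon metabolism, had 8 in WTSC and 0 in the other 3. Sesn2, a stress-induced inhibitor of growth signalling, had 7 reads in LTNSC, 2 in LTNTTC and 0 in both WT libraries.

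Within the eIF2 exchange factor, Eif2b4 had 13 reads in LTNSC, 22 in LTNTTC, 9 in WTSC and 0 in WTTTC, and Eif2b5 had 1 in LTNSC, 19 in LTNTTC, 7 in WTSC and 1 in WTTTC. G6pdx, the entry enzyme of the pentose phosphate pathway, had 30 reads in LTNTTC and 0 in the other 3 libraries. Bok and Mdm2, of the BCL-2 family and the p53 axis, and Man1b1, of ER-associated degradation, were listed at 0 in all 4 libraries.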
